A study of Mus musculus with 2 samples.

Results

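The enzymes that make prostaglandins, thromboxane and leukotrienes from arachidonic acid were followed through 10 genes, Ptgs1, Ptgs2, Ptges, Ptges2, Ptges3, Tbxas1, Pla2g4a, Alox5, Alox5ap and Lta4h, of 55536 annotated mouse genes measured. The genes were chosen by symbol for their place in the pathway, with earlier results of these data known. All 10 were found in every deposited table. RNA came from the nucleoplasm, the nuclear interior apart from chromatin, of bone marrow-derived macrophages (BMDM) of C57BL/6J mice. Bone marrow-derived macrophages are primary cells grown from marrow progenitors in culture. The cells had received lipid A, the part of bacterial endotoxin that Toll-like receptor 4 recognises, at 100 ng/ml for 20 minutes. Ribosomal RNA was depleted before total RNA sequencing. There was 1 group of 2 libraries: 500 ng of starting RNA went into replicate 2, and 1 µg into replicate 1. They are numbered as biological replicates and carry the same donor identifier, and the labels do not say whether the cultures or animals were separate. Sex and age were not collected. No untreated cells, other time or other cell fraction was analysed here, so no response to lipid A can be read from these values, and no test between conditions was possible. A difference between the libraries is given with an interval that covers counting error only.

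Arachidonic acid is stored in membrane phospholipids and is set free mainly by cytosolic phospholipase A2. The cyclooxygenases then convert it to prostaglandin H, which terminal synthases turn into prostaglandin E, thromboxane and other prostanoids. In a parallel branch, 5-lipoxygenase, helped by its activating protein, makes leukotriene A, which leukotriene A4 hydrolase converts to leukotriene B. Macrophages are a known source of both families of lipid mediators, and Ptgs2 is a well-known inducible gene of the response to endotoxin.

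Tbxas1, which encodes thromboxane A synthase, was the member with the most RNA, and most of its counts lay on transcripts that the annotation classes as retaining an intron. The splice sites that bound its 1 wholly retained intron are shown because this intron separates Tbxas1-205, the transcript with the most counts of the gene, from the spliced coding transcript Tbxas1-201. The intron spans chr6:39081077-39083692 (mm10, plus strand), is 2616 bases long and is the next-to-last intron of the spliced coding transcript Tbxas1-201, between 2 coding exons. Tbxas1-205 took 34.8% and 46.7% of the gene's counts in the 2 libraries, and the other retained-intron transcripts hold no whole intron of a coding transcript. Each line gives the reference bases 5′ to 3′, and the capitals mark the first or last 2 bases of the intron.
Tbxas1 donor site: accctgaaagGTaagtgaattccatctaga
Tbxas1 acceptor site: aaccttcacctgacccttAGgttcacagca
The intron has the usual GT and AG ends, and transcript Tbxas1-205 keeps all of it. Over the 10 genes, 5 introns of coding transcripts lie whole inside an annotated retained-intron transcript, the other 4 in Alox5-204, and all 5 have GT and AG ends. Of those in Alox5-204, 2 overlap, since they share a donor site and end at different acceptor sites.

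The upstream sequences of the cyclooxygenase genes are shown because Ptgs2 and Ptgs1 differed between the libraries in opposite directions. They are the 250 bases before the RefSeq start, plus strand, on GRCm38.p6, at chr1:150099781-150100030 for Ptgs2 and chr2:36230176-36230425 for Ptgs1. Capitals mark the matches described next.
Ptgs2: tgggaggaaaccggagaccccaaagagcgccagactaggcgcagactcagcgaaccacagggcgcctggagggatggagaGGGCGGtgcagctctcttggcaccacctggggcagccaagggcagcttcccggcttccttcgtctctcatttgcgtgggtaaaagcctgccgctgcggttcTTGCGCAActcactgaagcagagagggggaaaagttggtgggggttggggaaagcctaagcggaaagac
Ptgs1: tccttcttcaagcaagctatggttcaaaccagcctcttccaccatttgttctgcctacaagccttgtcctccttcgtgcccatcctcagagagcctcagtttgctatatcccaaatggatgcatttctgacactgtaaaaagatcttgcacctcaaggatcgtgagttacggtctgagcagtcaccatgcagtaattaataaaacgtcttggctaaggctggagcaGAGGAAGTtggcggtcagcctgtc
Promoter windows were found for 9 of the 10 genes and searched on both strands, from 250 bases before to 50 bases after the start. In the Ptgs2 window a C/EBP motif (TTGCNNAA, here TTGCGCAA) lies at −69 to −62, and 10.8% of all 32851 RefSeq promoter windows hold this motif. A GC box (GGGCGG) lies at −170 to −165 of Ptgs2, and 35.7% of windows hold one. Just past the Ptgs2 start, outside the printed stretch, a cyclic AMP response element core (ACGTCA) at 13 to 18 overlaps an E-box (CACGTG) at 17 to 22, which 7.51% and 7.15% of windows hold. The Ptgs1 window holds a PU.1 motif (GAGGAAGT) at −24 to −17, present in 3.20% of windows. The TATA box (TATAAA, 13.6% of windows) and the NF-kB motif (4.51% of windows) matched neither window. These matches describe letters and not binding.

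Macrophage RNA dominated both libraries: all 10 macrophage markers of a fixed list, among them Csf1r, Adgre1 and Cd68, reached 1 TPM (a level per transcript length, scaled to the library total) in both, with summed levels of 3774 and 3447 TPM. Platelet and megakaryocyte markers, which matter here because platelets are rich in thromboxane synthase, reached 1 TPM in both libraries for 4 of 11 and summed to 77.5 and 78.5 TPM. Pf4, which macrophages can also express, supplied 62.2 and 69.2 TPM of that sum, while the platelet gene Ppbp was at 0.54 and 0.58 TPM and Gp1bb at 0. The other 10 platelet markers summed to 15.3 and 9.34 TPM (370 and 274 counts), and 6 of them had fewer counts in replicate 2 than in replicate 1. Of the 6 platelet markers tested, 1 was over 2-fold lower in replicate 2 with its interval clear of 0, Itga2b with 45 and 16 counts (log2 ratio −1.40, −2.35 to −0.58), where 8.03% of all genes tested differed over 2-fold with the interval clear of 0 in either direction. Markers of neutrophils, which are rich in 5-lipoxygenase, reached 1 TPM in both for 1 of 11 and summed to 6.46 and 9.02 TPM, with Retnlg and Ly6g at 0. Of the 3 neutrophil markers tested, 1 was over 2-fold higher in replicate 2 with its interval clear of 0, Ngp with 13 and 48 counts. Mmp8, Ltf, Mpo, Cxcr2 and Elane also had more counts in replicate 2, and S100a8, S100a9 and Camp had fewer. Mast cell and basophil markers passed for 1 of 10 (sums 1.72 and 1.62 TPM, with Mcpt4, Mcpt8, Tpsab1, Tpsb2 and Fcer1a at 0). Eosinophil markers passed for 1 of 5 (sums 2.18 and 1.45 TPM, with Epx, Ear6 and Il5ra at 0) and stromal markers for 0 of 6 (sums 0.14 and 0.16 TPM, with Dcn at 0). In such bulk RNA, fewer cells of a type and less RNA per cell cannot be told apart. The libraries held 18194818 and 18667509 counts in all, and the 10 genes together took 0.0481% and 0.0487% of them.

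Most of the 10 genes were present in nucleoplasmic RNA. Levels reached 1 TPM in both libraries for 8 of the 10 genes, and 44.9% of the 22015 nuclear-encoded protein-coding genes did so. The median level of the 10 was 17.7 TPM in replicate 1 and 10.8 TPM in replicate 2, and that of all nuclear-encoded protein-coding genes was 0.59 and 0.48 TPM. By mean TPM the order ran from Tbxas1 through Ptgs2, Alox5ap, Ptgs1, Lta4h, Ptges3, Pla2g4a and Ptges2 to Ptges and Alox5. The ranges of neighbours overlapped between Ptgs2 and Alox5ap, between Ptgs1 and Lta4h, and between Ptges and Alox5. Those pairs did not differ beyond the spread of the libraries.

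**Figure D1:**
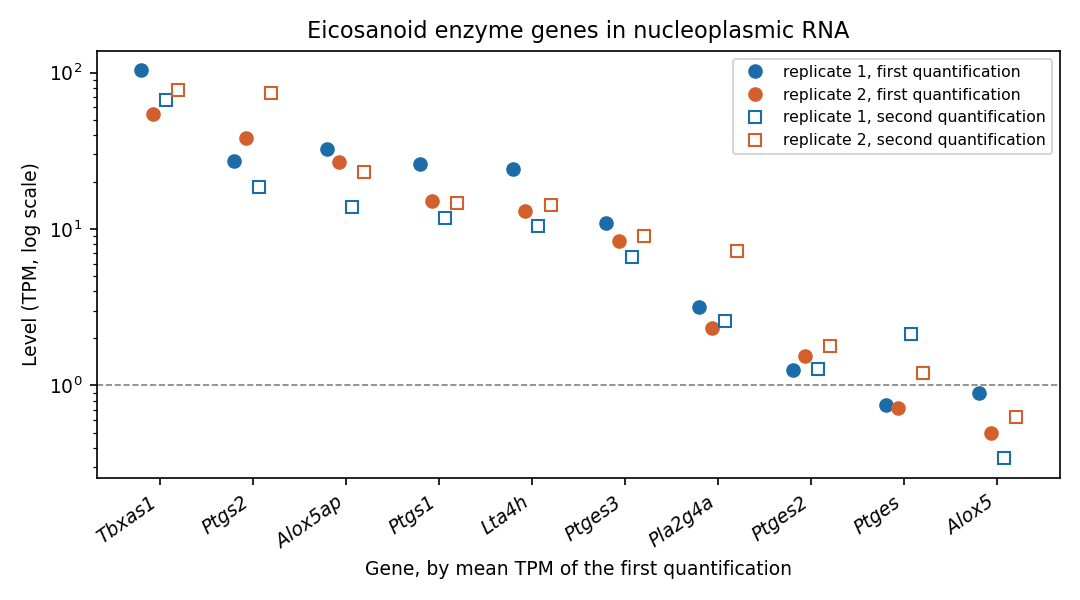
Level of each gene in TPM (log axis), with filled circles for the first deposited quantification and open squares for the second, blue for replicate 1 and orange for replicate 2, and a dashed line at 1 TPM. Tbxas1 lies at 103.6 and 54.5 TPM in the first quantification, and Ptges and Alox5 lie below the line in both libraries there.

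Release of arachidonate is represented by Pla2g4a (ENSMUSG00000056220.14, chr1:149829618-149961290, minus strand), which encodes cytosolic phospholipase A2 alpha. It stood at 3.19 TPM in replicate 1 against 2.33 TPM in replicate 2 (2.76 ± 0.608 TPM, SD, n = 2), from 158 and 127 expected counts. The 2 libraries were close: the log2 ratio of replicate 2 to replicate 1, from counts scaled by TMM (trimmed mean of M values), was −0.25, with a 95% counting interval from −0.60 to 0.09. In the second deposited quantification Pla2g4a was at 2.58 and 7.19 TPM, and its log2 ratio from counts was −0.13 (−0.41 to 0.14). The order of the libraries in TPM thus depended on the quantification. In the second, the 247-base processed transcript Pla2g4a-203 supplied 39.2% and 71.3% of the gene's TPM, from 4.46 and 20.2 estimated counts. In the first it had 0 counts in both libraries. Over 9311 genes, the second quantification gave a median of 0.502 times the first in replicate 1 and 0.969 times in replicate 2. Of the Pla2g4a counts, 39.4% and 44.1% lay on the single retained-intron transcript Pla2g4a-204, of whose 3453 bases 92.0% fall outside the exons of coding transcripts.

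The cyclooxygenases did not follow each other. Ptgs1 (ENSMUSG00000047250.13, chr2:36230426-36252272, plus strand), the constitutive cyclooxygenase 1, stood at 26.2 TPM in replicate 1 against 15.1 TPM in replicate 2 (20.6 ± 7.82 TPM, SD, n = 2), from 827 and 574 counts. Ptgs2 (ENSMUSG00000032487.8, chr1:150100031-150108227, plus strand), the inducible cyclooxygenase 2, stood at 27.4 TPM in replicate 1 against 38.4 TPM in replicate 2 (32.9 ± 7.74 TPM, SD, n = 2), from 2211 and 3778 counts. In the first quantification Ptgs2 was thus higher in replicate 2 than in replicate 1, and Ptgs1 was lower. The log2 ratio of replicate 2 to replicate 1 was 0.83 (95% counting interval 0.76 to 0.91) for Ptgs2 and −0.47 (−0.62 to −0.31) for Ptgs1. Both intervals are clear of 0, and neither ratio exceeds 2-fold. Ptgs2 stood at 1.05 times the TPM of Ptgs1 in replicate 1 and at 2.54 times in replicate 2, and in the second quantification at 1.58 and 5.03 times. Of all 15557 genes tested, 7.13% had a log2 ratio as high as that of Ptgs2 or higher.

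The second quantification placed part of the Ptgs2 signal on another transcript. In the first, all Ptgs2 counts in both libraries were on the full-length Ptgs2-201 (4453 bases), and the short coding transcript Ptgs2-202 (358 bases) had 0. In the second, Ptgs2-202 held 77.0 and 334 estimated counts, 2.68% and 5.05% of the gene's. Because the transcript is short, these counts became 7.99 and 40.9 TPM, or 42.8% and 55.3% of the gene's TPM. On Ptgs2-201 alone the second quantification gave 10.7 and 33.0 TPM. The count ratio was 0.96 (0.90 to 1.02) in the second quantification, and its estimate lay above the interval of the first. For Ptgs1 the second quantification gave 11.8 and 14.7 TPM and a log2 count ratio of −0.41 (−0.55 to −0.28). Its counts were thus lower and its TPM higher in replicate 2.

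Among the terminal synthases, Tbxas1 (ENSMUSG00000029925.13, chr6:38875404-39084585, plus strand) had the highest level. It stood at 103.6 TPM in replicate 1 against 54.5 TPM in replicate 2 (79.1 ± 34.7 TPM, SD, n = 2), which ranked it 504 of 22015 nuclear-encoded protein-coding genes. Its counts were 4152 and 3388, and the count ratio was −0.23 on the log2 scale (−0.30 to −0.17), against −0.92 from the TPM values. The difference between these 2 ratios, −0.69, has 2 parts. The deposited effective length of the gene, an average over its transcripts weighted by their shares, was 2110 bases in replicate 1 and 2685 in replicate 2, a log2 ratio of 0.35. The TPM values of all genes tested had a median log2 ratio of −0.35 between the libraries. In the second quantification Tbxas1 was at 66.9 and 77.6 TPM, the higher value then being that of replicate 2.

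The prostaglandin E synthases were much lower. Ptges3 (ENSMUSG00000071072.12, chr10:128058954-128077272, plus strand), which encodes the co-chaperone p23, also known as cytosolic prostaglandin E synthase, stood at 11.0 TPM in replicate 1 against 8.42 TPM in replicate 2 (9.71 ± 1.82 TPM, SD, n = 2), from 313 and 335 counts. Ptges2 (ENSMUSG00000026820.5, chr2:32395896-32405772, plus strand), the membrane-associated synthase 2, stood at 1.26 TPM in replicate 1 against 1.54 TPM in replicate 2 (1.40 ± 0.198 TPM, SD, n = 2), from 47 and 59 counts. Their log2 ratios, 0.16 (−0.07 to 0.39) for Ptges3 and 0.39 (−0.19 to 0.97) for Ptges2, have intervals that hold 0. The second quantification put Ptges3 at 6.66 and 9.09 TPM and Ptges2 at 1.27 and 1.79 TPM. Neither gene differed detectably between the libraries at this depth.

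Ptges (ENSMUSG00000050737.13, chr2:30889471-30929863, minus strand), the inducible microsomal prostaglandin E synthase 1 that is usually coupled to cyclooxygenase 2, was near the bottom of the order. It stood at 0.75 TPM in replicate 1 against 0.72 TPM in replicate 2 (0.735 ± 0.0212 TPM, SD, n = 2). Its counts, however, were 49 and 15, a log2 ratio of −1.62 (−2.59 to −0.79). Near-equal TPM went with unequal counts. Replicate 1 had all counts on the 3647-base coding transcript Ptges-202. In replicate 2 only 9.94 counts were on it and 4.17 on the 543-base processed transcript Ptges-204, and the effective length of the gene was 3440 bases in replicate 1 and 900 in replicate 2. In the second quantification Ptges was at 2.13 and 1.21 TPM, with a count ratio of −1.18 (−1.66 to −0.72).

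In the leukotriene branch the RNA of the activating protein far exceeded that of the enzyme it serves. Alox5ap (ENSMUSG00000060063.9, chr5:149264767-149288153, plus strand), the 5-lipoxygenase activating protein FLAP, stood at 32.5 TPM in replicate 1 against 26.8 TPM in replicate 2 (29.7 ± 3.99 TPM, SD, n = 2), from 412 and 409 counts. Alox5 (ENSMUSG00000025701.12, chr6:116410077-116461178, minus strand), 5-lipoxygenase itself, stood at 0.89 TPM in replicate 1 against 0.50 TPM in replicate 2 (0.695 ± 0.276 TPM, SD, n = 2), from 22 and 18 counts. Alox5ap was thus 36.5 and 53.7 times as high as Alox5 in the 2 libraries, and 40.4 and 36.9 times in the second quantification. The second quantification gave 13.8 and 23.2 TPM for Alox5ap and 0.341 and 0.627 TPM for Alox5. The log2 ratios were 0.05 (−0.15 to 0.25) for Alox5ap and −0.22 (−1.21 to 0.74) for Alox5. The libraries thus differed by no more than counting error for either gene.

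None of the Alox5 counts in the first quantification fell on a transcript that codes for 5-lipoxygenase. All 22 and 18 were on retained-intron transcripts, Alox5-204 with 11.95 and 11.96 and Alox5-206 with 10.05 and 6.04. With so few counts, a coding share of up to 15.4% in replicate 1 and 18.5% in replicate 2 lies within the exact 95% binomial interval. The second quantification placed 7.08% and 37.2% of the Alox5 counts on coding transcripts, so the split is not settled by these files. Lta4h (ENSMUSG00000015889.8, chr10:93453411-93484875, plus strand), the hydrolase that makes leukotriene B4, stood at 24.3 TPM in replicate 1 against 13.1 TPM in replicate 2 (18.7 ± 7.92 TPM, SD, n = 2), from 563 and 392 counts. Its log2 ratio was −0.46 (−0.65 to −0.27), lower in replicate 2 beyond counting error. In the second quantification Lta4h was at 10.5 and 14.3 TPM, with a log2 count ratio of −0.30 (−0.45 to −0.15), so counts were lower and TPM higher in replicate 2.

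Across the 10 genes, 1 was higher in replicate 2 beyond counting error (Ptgs2), 4 were lower (Tbxas1, Ptgs1, Lta4h and Ptges) and 5 had intervals that hold 0. Of all 15557 genes whose mean scaled count was at least 10, 24.5% were higher and 25.5% lower in replicate 2 in the same sense. Over 2-fold with the interval clear of 0 was 1 of the 10, Ptges, against a background of 8.03%, a share near that of all genes. The median log2 ratio of the 10 was −0.23, and that of all genes tested was 0.00457. On the TPM scale, 8 of the 10 were lower in replicate 2, and Ptgs2 and Ptges2 were higher, on a scale where all genes tested had a median log2 ratio of −0.35. The amount of RNA used differed between the libraries, and its part in these differences was not tested.

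**Figure D2:**
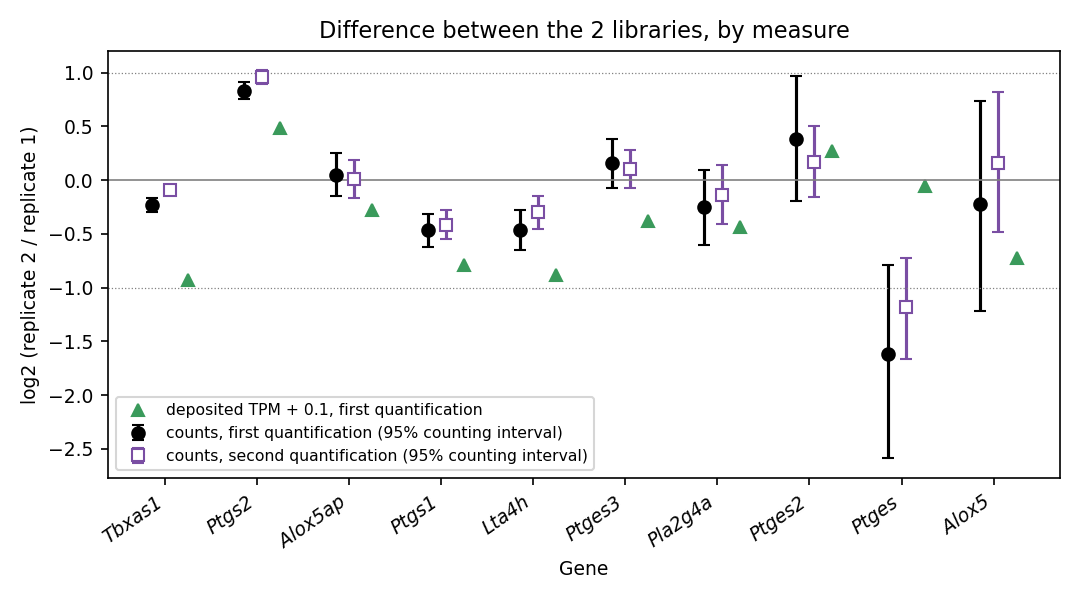
log2 ratio of replicate 2 to replicate 1 for each gene, from TMM-scaled counts of the first quantification (black circles) and the second (open squares), each with its 95% counting interval, and from deposited TPM plus 0.1 (green triangles). Dotted lines mark 2-fold. Ptgs2 lies above 0 by all 3 measures, and Ptges lies at −1.62 by counts but at −0.05 by TPM.

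Of the genes with over 100 counts in both libraries, Tbxas1 had the largest retained-intron share. Of its counts, 24.9% (exact 95% binomial interval 23.6 to 26.2) lay on coding transcripts in replicate 1 and 7.80% (6.91 to 8.75) in replicate 2. Retained-intron transcripts held 74.8% in replicate 1 and 92.1% in replicate 2. Among the 5479 genes with both classes annotated and at least 100 counts in each library, retained-intron transcripts held more counts than coding ones in both libraries in 16.0%. The retained-intron share of Tbxas1 was above that of 98.3% of these genes. In the second quantification the retained-intron share of Tbxas1 was 78.3% and 90.8%, and that of 95.1% of 6512 genes was lower. There 24.2% of genes had more retained-intron than coding counts in both libraries.

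The coding counts of Tbxas1 were lower in replicate 2 in both quantifications, and its retained-intron counts were not. Coding transcripts held 1034 counts in replicate 1 and 264 in replicate 2, a log2 ratio of −1.91 (−2.11 to −1.71). Retained-intron transcripts held 3106 and 3121 counts, a log2 ratio of 0.07 (−0.00499 to 0.14). By the second quantification the log2 ratio was −1.75 (−1.92 to −1.59) for coding transcripts and 0.12 (0.07 to 0.18) for retained-intron transcripts, the latter slightly higher in replicate 2 beyond counting error. Platelet markers other than Pf4 summed to 370 counts in replicate 1 and 274 in replicate 2. In TPM they summed to 15.3 and 9.34, on a scale where all genes tested had a median log2 ratio of −0.35. Treml1, Gp1ba and Clec1b, with the most counts among them, had intervals that hold 0, and those of Itga2b and Gp9 were clear of 0. Gp9, with too few counts to be among the markers tested, had 15 and 4 counts (log2 ratio −1.72, −3.90 to −0.20). Pf4 was higher in replicate 2, with a log2 ratio of 0.41 (0.20 to 0.62). The part of platelet markers in the result was not tested. The coding share of replicate 2 minus that of replicate 1 was −17.1 percentage points, and 252 of the 5479 genes had a difference at least as negative. A coding share lower by 10 points or more was present in 13.8% of these genes, and in 12.6% of the 6512 genes of the second quantification, where Tbxas1 was at −12.4 points. The 10-point mark and the minimum of 100 counts were chosen after values were seen.

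By transcript, the full-length Tbxas1-201 (1990 bases, 13 exons) had 765 counts in replicate 1 and 149 in replicate 2, a log2 ratio of −2.30 (−2.56 to −2.04). In the second quantification it had 599 and 87.1 counts, a log2 ratio of −3.02 (−3.37 to −2.70). Tbxas1-205 (4562 bases), which holds the intron shown above, had 1444 and 1584 counts and the opposite sign, 0.19 (0.09 to 0.30). Of the counts on these 2 transcripts, Tbxas1-205 took 65.4% in replicate 1 and 91.4% in replicate 2, and 82.7% and 97.8% in the second quantification. The division leans on few positions, since 2.60% of the 31-base words of Tbxas1-201 occur in no other transcript of the gene, against 58.3% for Tbxas1-205. The coding transcript Tbxas1-206, which starts further upstream, had 215 and 98.9 counts, a log2 ratio of −1.05 (−1.42 to −0.71). Of its words, 79.5% occur in no other transcript of the gene. Tbxas1-206 was thus lower in replicate 2 as well. It ends at chr6:38952973, before the end of Tbxas1-201 at 39084585. Its upstream part lies within the span of Hipk2, and an exon overlaps the antisense gene Gm42962 by 144 bases. Tbxas1-202 and Tbxas1-204, the other retained-intron transcripts, had 1138 and 1080 counts and 524 and 456 counts, with intervals that hold 0. By the second quantification the interval of Tbxas1-202 again held 0, and Tbxas1-204 had 877 and 1158 counts, a log2 ratio of 0.16 (0.03 to 0.28), opposite in sign to the first.

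**Figure D3:**
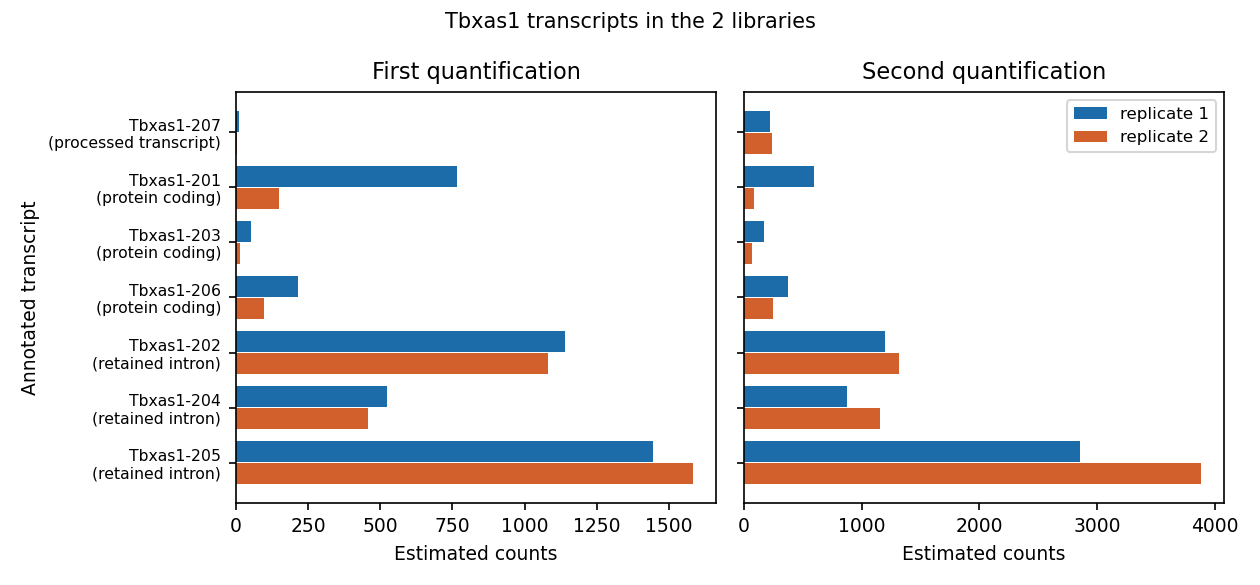
Estimated counts on each of the 7 annotated Tbxas1 transcripts, with the class in brackets, in replicate 1 (blue) and replicate 2 (orange), for the first quantification (left) and the second (right). The 3 coding transcripts are lower in replicate 2 in both panels, and Tbxas1-205 is higher in replicate 2 in both.

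Apart from Alox5, described above, the other genes had over 50% of their counts on coding transcripts in both libraries of the first quantification. The coding share of Pla2g4a was 60.6% and 54.8%, and that of Ptges was 100% and 66.3%, the latter from 15 counts. Ptgs2 had only coding transcripts annotated, and Alox5ap had 88.7% and 86.3% of its counts on coding ones. Ptges3 had 97.3% and 99.7% on coding transcripts. For Ptgs1 the coding share was 71.7% and 78.3%, and the processed-transcript share was 18.7% and 10.5%. The long processed transcript Ptgs1-204 held 135 counts in replicate 1 and 49.9 in replicate 2. For Lta4h, retained-intron transcripts held 26.8% and 31.4% of counts, and for Ptges2 18.8% and 25.4%, from few counts. Per TPM, which weights short transcripts up, the retained-intron share averaged 65.9% for Tbxas1, 70.2% for Ptges2, 49.7% for Lta4h and 36.1% for Ptgs1.

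**Figure D4:**
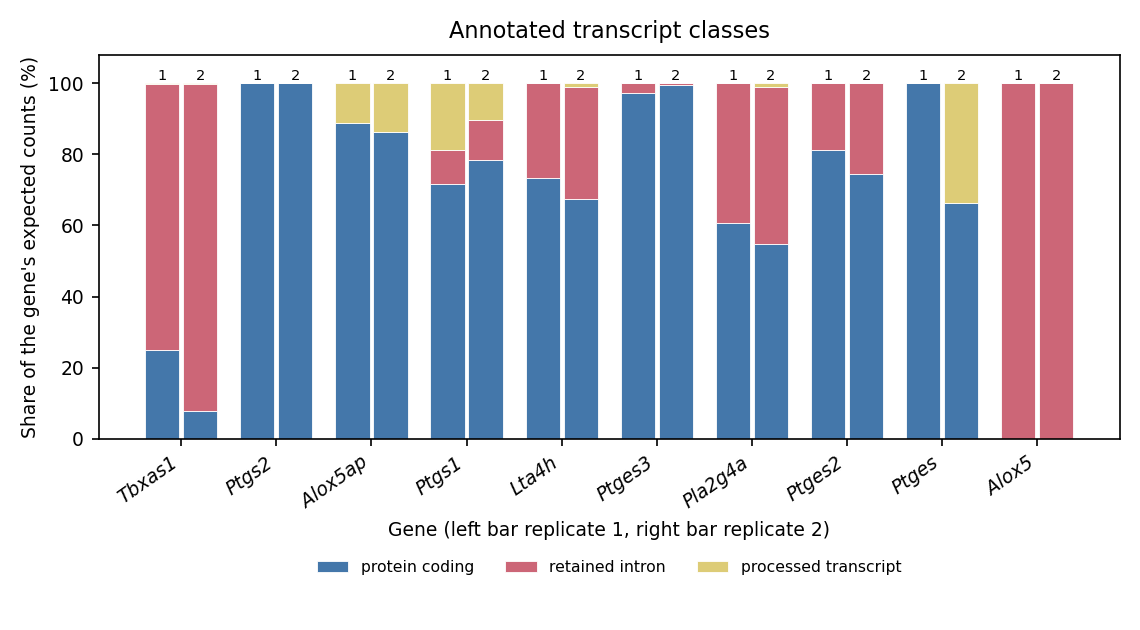
Share of each gene's expected counts in the first quantification (percent) on coding (blue), retained-intron (red) and processed (yellow) transcripts, with replicate 1 as the left bar and replicate 2 as the right. Tbxas1 is 24.9% coding in replicate 1 and 7.80% in replicate 2, and Alox5 has no coding counts, from only 22 and 18 counts.

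Some genes lie over or beside the 10, and no source used here states whether the counting used strand. Reads from such pairs can be confused. Hipk2, a kinase gene on the minus strand with 3451 and 4159 counts, overlaps the upstream end of Tbxas1 by 762 bases. Also inside Tbxas1 on the minus strand are 1700025N23Rik (84 and 57 counts) and Gm42962 (11 and 17 counts), and Gm23010 on the plus strand had 0. Antisense Gm19719 (105 and 147 counts) lies over Alox5ap, and 9.45% of the 31-base words of Alox5ap also occur in it. Gm43621 (29.1 and 56.1 counts) lies over Ptgs1 on the other strand, and Gm13400 (8 and 1 counts) inside Ptges on the same strand. The ribosomal entries n-R5s219 in Pla2g4a and n-R5s180 in Alox5ap had 0.

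Ptges3 has a processed pseudogene, Ptges3-ps, with 2.06 counts in replicate 1 and 38 in replicate 2. Of the words in Ptges3, 20.9% occur in other genes, mostly in that copy, so reads from the gene and the copy can be confused. The deposited posterior SD of the Ptges3 count was 1.91 and 7.53, beside 313 and 335 counts. The paralog Ptges3l had 2.24 and 3 counts. Beside Ptgs2, the divergent Ptgs2os, which begins 67 bases upstream on the minus strand, had 10 and 14 counts, far below Ptgs2 in both libraries. Ptgs2os2, a separate gene downstream of Ptgs2, had 17 and 35 counts.

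A list of 67 other genes of arachidonate metabolism and signalling placed the 10 in context. Of the 66 matched to a single gene, 34 reached 1 TPM in both libraries, where 44.9% of all nuclear-encoded protein-coding genes did so. Below 1 TPM in both libraries were 29, and 8 of these were at 0 in both. Of the 39 with enough counts, 1 differed over 2-fold between the libraries with its interval clear of 0, against the background of 8.03%. It was the leukotriene hydroxylase gene Cyp4f18, singled out after its values were seen, with 154 and 71 counts.

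Hpgds, the hematopoietic prostaglandin D synthase, exceeded every member of the pathway measured here, with 230.3 TPM in replicate 1 against 188.2 TPM in replicate 2. Of the other terminal synthases, 4 of 7 reached 1 TPM in both libraries. Akr1b3, an aldose reductase with prostaglandin F synthase activity, was at 11.5 and 6.64 TPM, and Fam213b, a prostamide and prostaglandin F synthase, at 7.30 and 3.27 TPM. Ptgis, the prostacyclin synthase, and Akr1c18 were at 0 in both. Among phospholipases and lipases, 6 of 16 passed, led by the lysosomal phospholipase Pla2g15 at 70.3 and 46.5 TPM. The diacylglycerol lipase Daglb was at 28.3 and 24.8 TPM, and the monoacylglycerol lipase Mgll at 19.0 and 7.70 TPM. All 5 re-esterification genes passed, with Lpcat2 at 22.2 and 13.8 TPM, Lpcat3 at 14.2 and 13.6 TPM and Mboat7 at 13.0 and 13.5 TPM.

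For the other lipoxygenase and leukotriene genes, 5 of 14 passed. Mgst1, a microsomal glutathione transferase, was at 23.4 and 24.9 TPM, the epoxide hydrolase Ephx1 at 6.83 and 5.12 TPM, and Ltc4s, the leukotriene C4 synthase, at 4.30 and 3.12 TPM. Alox15, Alox12b, Ggt1 and Dpep1 were at 0 in both. Of breakdown and transport genes, 7 of 9 passed, led by the leukotriene exporter Abcc1 at 39.3 and 24.9 TPM, Cyp4f13 at 37.1 and 23.4 TPM and the prostaglandin reductase Ptgr2 at 12.2 and 10.7 TPM. Receptors passed for 7 of 15. The highest were the chemerin receptor gene Cmklr1 at 14.2 and 11.1 TPM and the prostaglandin E receptors Ptger1 at 14.6 and 9.21 TPM and Ptger4 at 12.0 and 6.37 TPM. Ptgdr and Ptgfr were at 0 in both libraries.

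**Figure D5:**
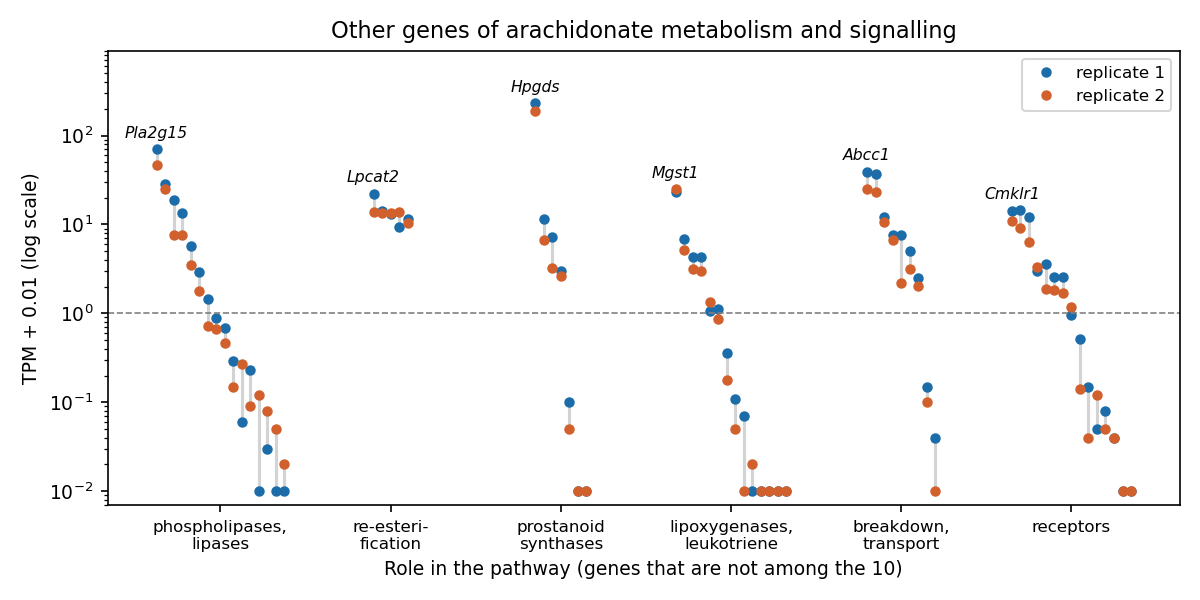
TPM plus 0.01 (log axis) of the 66 other pathway genes in replicate 1 (blue) and replicate 2 (orange), by role and sorted by mean level, with the highest gene of each role named, a grey line joining the libraries and a dashed line at 1 TPM. Hpgds is the highest at 230.3 and 188.2 TPM, and all 5 re-esterification genes lie above the dashed line.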

How the data were processed

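Total RNA-seq of 2 nucleoplasmic libraries was analysed. Per the labels and file headers, reads were quantified on mm10 with GENCODE M21; aligner and quantifier: not given in the sources used here. In the first quantification, the authors deposited expected counts, TPM and FPKM per gene and transcript, with posterior SDs. In the second, the authors deposited estimated counts and TPM per transcript, summed here to genes. Only reads matching annotated transcripts are counted, so intron reads count where an annotated transcript keeps the intron.

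Counts were rounded and scaled with edgeR 4.0.16 TMM in R 4.3.3 (prior count 0.5, minimum mean scaled count 10). Intervals are exact binomial at 95% (scipy 1.17.1) and cover counting error only. The ratio was checked on simulated counts with known changes. DESeq2 1.42.0 size factors were an alternative. Splice-site sequences come from GENCODE transcripts, promoters from RefSeq GRCm38.p6. The text names all 10 genes, the 3 highest of each pathway role, overlapping genes and named copies. The members and lists were chosen with earlier results of these data known. Retained-intron thresholds were chosen after seeing values.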

Additional observations from a re-analysis of the deposited data

How the results depend on the processing

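Recomputed values were judged by kind. Levels and shares had the SD between libraries as their limit, and counts of genes a factor of 1.5. Ratios were judged by the counting intervals. Of 182 values, 135 stayed within their limit and 47 moved more. With n = 2, a level or share from 1 library alone always lies within that SD. Those values test nothing, yet they are counted among the 135. No ratio with an interval clear of 0 changed sign among the settings tried. TPM of the second quantification was not among the ratio settings. There Tbxas1 (66.9 and 77.6 TPM), Ptgs1 (11.8 and 14.7 TPM) and Lta4h (10.5 and 14.3 TPM) were higher in replicate 2. Between 7 and 10 of the 10 genes reached the minimum level in both libraries over all settings (8 as reported). The median level rose from 14.2 to 55.8 TPM when TPM was rescaled over nuclear-encoded protein-coding genes. The count of genes over 2-fold, 1 as reported, was 0 by TPM ratios and 0 when the minimum mean scaled count was 50, which removes Ptges from the genes tested. Single ratios changed sign in 4 of 60 cases, for Alox5 (0.16 by the second quantification), Alox5ap (library totals and TPM) and Ptges3 (−0.38 by TPM), whose intervals held 0. For Tbxas1 the log2 ratio ran from −0.92 to −0.09, for Ptgs2 from 0.48 to 0.96 and for Ptges from −1.71 to −0.05. Leaving out a library gives no ratio, and no untreated library was analysed, so no paired analysis was possible because there was 1 group. Depth limits Alox5, Ptges and Ptges2, each with under 60 counts a library.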
